A study of Mus musculus with 28 samples.

Results

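The genes described here carry the symbols of mitochondrial ribosomal proteins. They were taken by name as the rows of the liver count table whose gene symbol is *Mrpl* or *Mrps* followed by a number and at most 1 letter from a to c, which gave 78 of 49585 features. Of these, 49 carry the *Mrpl* prefix of the large subunit and 29 the *Mrps* prefix of the small subunit. All 78 are annotated as protein coding, they lie on 17 chromosomes, and all 78 passed the filter on low counts that left 21583 expressed genes. Another 5 rows with such names are pseudogenes and were not counted as members.

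RNA was sequenced from the livers of 28 C57BL/6JOlaHsd mice aged 5 to 7 months, with 7 mice of each genotype, WT or SIRT6-tg, in each sex. SIRT6 is a nuclear NAD-dependent deacylase of the sirtuin family, and the SIRT6-tg mice overexpress it in the whole body. All transgenic mice came from a single line, were compared with littermates kept on chow in the same cages, and were fasted before collection. Total counts lay between 18758863 and 35393069 per library, of which the 78 genes took 0.171% to 0.343%. Levels are given as CPM, which adjusts counts for the size of each library. *Sirt6* itself rose from 2.73 ± 0.51 CPM (SD, n = 7) in the male WT livers to 281 ± 55.2 CPM (SD, n = 7) in the transgenic males. Its log2 fold change was 6.68 ± 0.30 (SE) in males and 3.39 in females.

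Mitochondria keep their own ribosomes, which translate the few messenger RNAs of mitochondrial DNA, all of them for subunits of the respiratory chain and ATP synthase. The ribosomal RNAs come from mitochondrial DNA, whereas every protein of both subunits is encoded in the nucleus, made in the cytosol, and imported. In the liver, a tissue rich in mitochondria, the nuclear transcription factors NRF1, GABPA of the ETS family, and YY1 are known to act on many promoters of this kind.

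Stretches upstream of several members are printed to show, in their setting, the letters these factors are known to bind. RefSeq promoter windows on GRCm38.p6, each 300 bases from 250 before to 50 after a start site, were at hand for 69 of the 78 genes (75 windows). The first 4 stretches are those of the members with the lowest adjusted p in males that held a match in the bases just before the start, and the last is that of *Mrpl52*, 1 of the 3 members with the highest spread between mice. They are printed 5′ to 3′ on the strand of the gene, stop before the first annotated exon, and carry in capitals each match on either strand to CCGGAAG (ETS), AAGATGGCG (YY1), or the NRF1 consensus, of which *Mrpl9* holds an example.
*Mrps22* (chr9:98601680-98601799, minus strand): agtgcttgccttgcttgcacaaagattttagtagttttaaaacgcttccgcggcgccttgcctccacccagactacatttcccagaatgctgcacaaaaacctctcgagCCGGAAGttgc
*Mrps27* (chr13:99344706-99344785, plus strand): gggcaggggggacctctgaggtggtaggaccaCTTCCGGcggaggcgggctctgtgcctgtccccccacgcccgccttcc
*Mrpl9* (chr3:94443198-94443317, plus strand): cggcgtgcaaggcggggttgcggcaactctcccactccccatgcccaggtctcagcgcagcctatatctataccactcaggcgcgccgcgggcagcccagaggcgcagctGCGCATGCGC
*Mrpl22* (chr11:58171541-58171660, plus strand): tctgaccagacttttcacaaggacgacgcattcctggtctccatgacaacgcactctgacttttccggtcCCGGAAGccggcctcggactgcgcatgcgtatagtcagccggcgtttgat
*Mrpl52* (chr14:54426789-54426908, plus strand): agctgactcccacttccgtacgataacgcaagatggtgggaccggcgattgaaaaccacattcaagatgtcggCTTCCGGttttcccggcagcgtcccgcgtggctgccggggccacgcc

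Over the whole 300-base windows, 26 of the 69 genes (37.7%) held CCGGAAG, against 9.93% of all 27025 genes with windows. A gene was counted if any of its windows held the letters. The NRF1 consensus was in the windows of 13 genes (18.8%), against 5.19% of all genes with windows, and AAGATGGCG in those of 8 genes (11.6%), against 1.64%. At least 1 of these 3 was in the windows of 41 genes, and CCGGAAG and AAGATGGCG can share 3 letters where they abut. Of other common elements, CCAAT was in the windows of 39.1% of the members against 41.1% of all genes with windows. CACGTG was in 7.25% against 8.09%, and TGACGTCA in 2.90% (2 genes) against 2.03%. TATAAA was in 7.25% of the members against 15.7% of all genes with windows. The median log2 fold change in males was 0.38 for genes with the NRF1 consensus and 0.38 for those without it, and 0.40 with CCGGAAG against 0.38 without. Of the 69 genes, 30 were higher in male SIRT6-tg mice by the test described next, among them 7 of the 26 with CCGGAAG, 6 of the 13 with the NRF1 consensus, and 5 of the 8 with AAGATGGCG. These counts are descriptions, and a match is not a site of binding. Many members start beside another gene: 33 of the 78 genes (42.3%) start within 1000 bases of a protein-coding gene on the opposite strand, against 10.9% of all 21951 protein-coding genes. *Mrps11* and *Mrpl46* form such a pair with each other.

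In male SIRT6-tg livers, 34 of the 78 mitochondrial ribosomal protein genes passed the test as higher and 0 as lower. Under TMM scaling the log2 fold change against male WT was positive for 77 of 78 genes, with a median of 0.38, against a median of 0.06 over all expressed genes. The 34 genes (43.6%) were called at an adjusted p under 0.05 (edgeR quasi-likelihood test, Benjamini-Hochberg adjustment over all 21583 genes), where 9.68% of all genes were higher, 11.0% lower, and 20.7% called in either direction. An unadjusted p under 0.05 was given to 51 of the 78 by edgeR, and to 7027 of all 21583 genes (32.6%). Genes of both prefixes shared in this, with 21 of 49 *Mrpl* and 13 of 29 *Mrps* genes called and the same median of 0.38. The prefix does not always give the subunit, as *Mrps18a*, *Mrps30*, and *Mrps36* below show. The ranges of the 7 SIRT6-tg and the 7 WT mice did not overlap for 10 genes (12.8%), all of them higher in SIRT6-tg. Over all genes, 2.6% were higher and 4.37% lower without overlap.

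**Figure D1:**
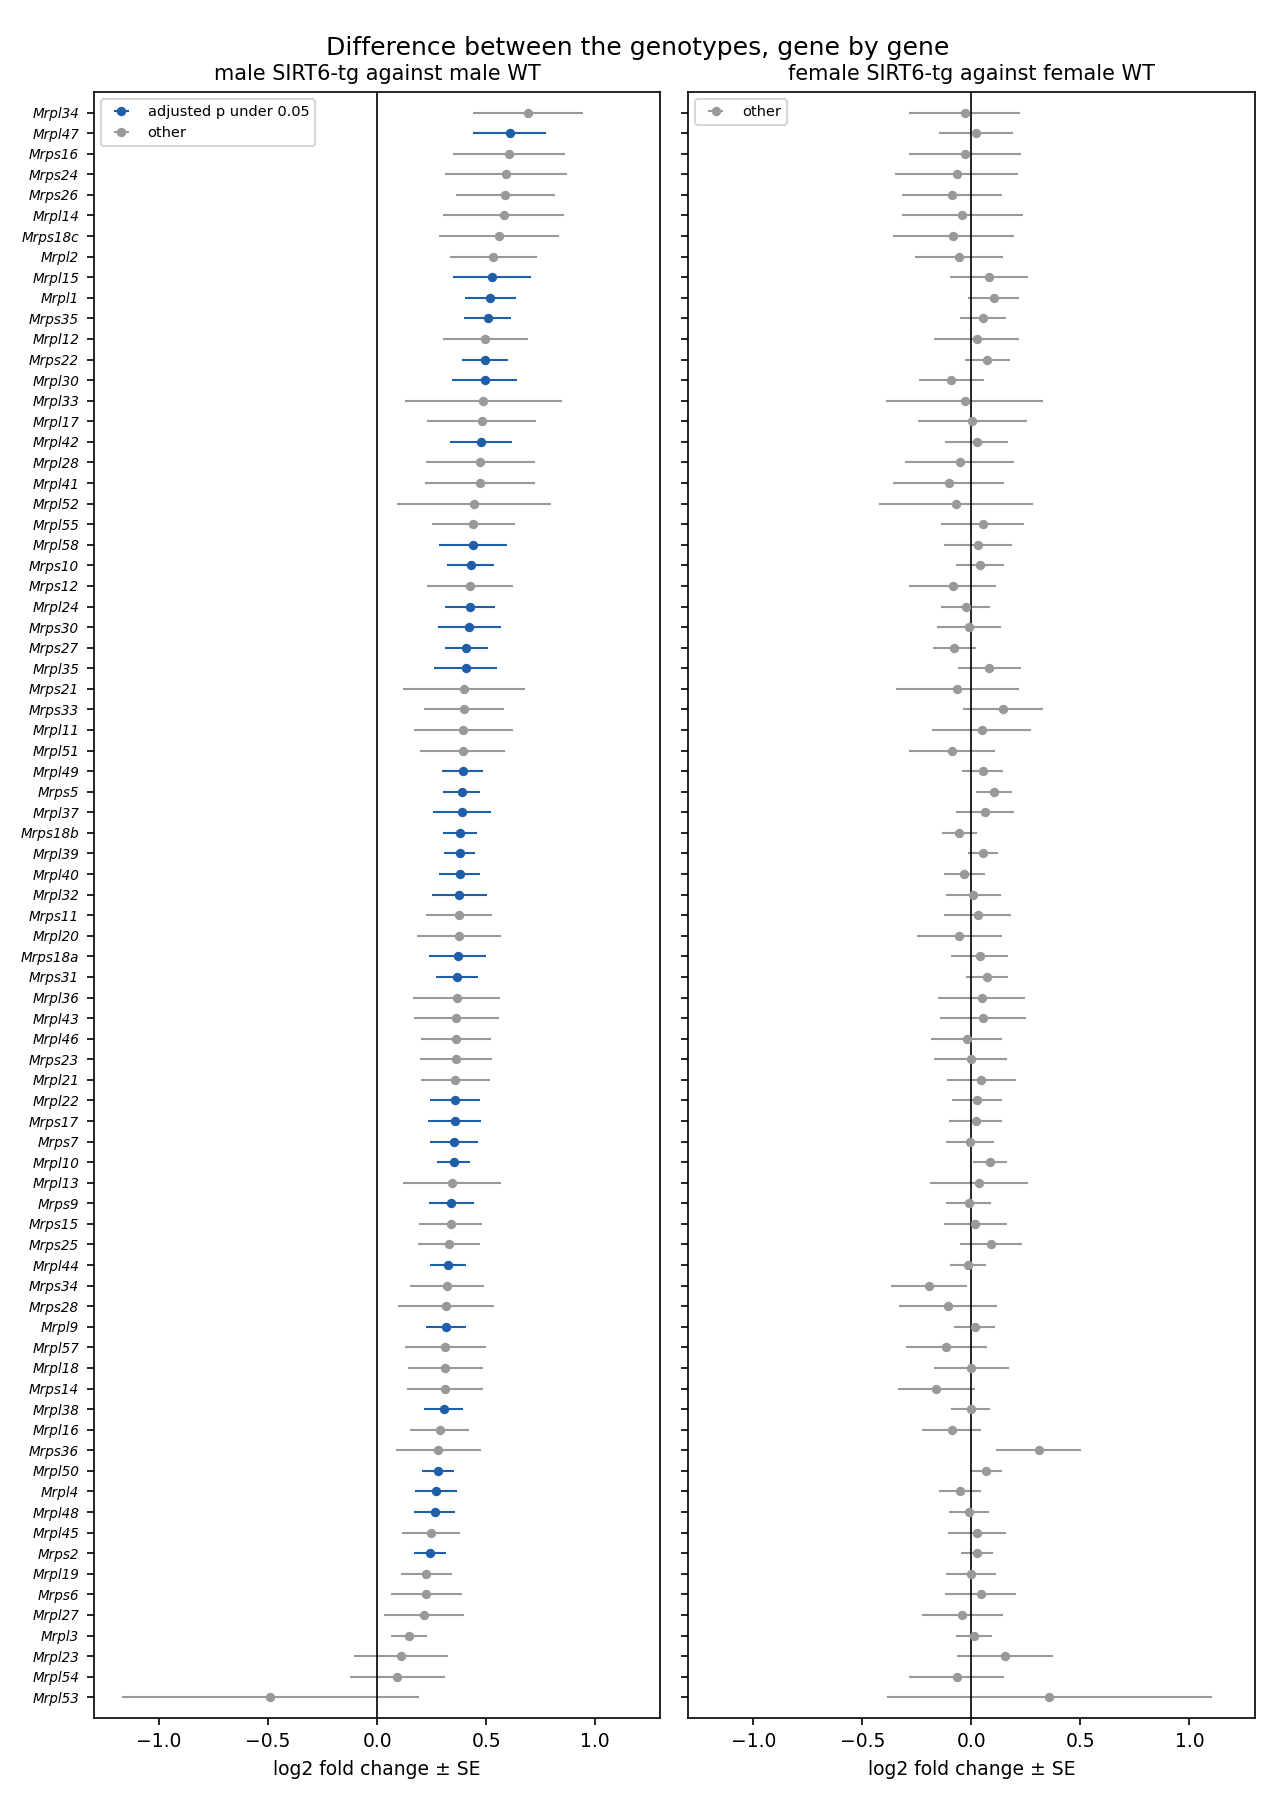
Log2 fold change (x axis, ± SE) of each of the 78 genes (y axis, in the order of the male value) in males (left) and females (right), from 1 edgeR fit with 7 mice a group; blue marks an adjusted p under 0.05. In males 77 of 78 points lie to the right of 0 and 34 are blue, whereas in females the points scatter on both sides of 0 with a median of 0.0071 and none is blue.

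The size of this difference depends on how libraries are scaled. TMM scaling, used throughout, rests on the bulk of genes being unchanged. Its factors ran from 1.06 to 1.17 in WT and from 0.821 to 0.993 in SIRT6-tg males. With no such factors, the median over all expressed genes moved to −0.22 and that of the 78 genes to 0.078, with 64 of 78 positive and 0 called. In that fit 0.973% of all genes were higher and 18.9% lower. The members' median stood above that of all genes by 0.32 under TMM, 0.32 under RLE (22 called), 0.31 under upper-quartile scaling (15 called), and 0.30 under library size alone. Of all genes, 6.46% were higher under RLE and 4.36% under upper-quartile scaling. When libraries were scaled to 14 hepatocyte markers, an alternative added after the data were seen, the members' median was 0.046, that of all genes −0.25, and 0 of 78 were called, where 0.658% of all genes were higher and 18.3% lower. The members' median thus lay above that of all genes under each of these scalings. No member passed the test when libraries were scaled by their totals or by the hepatocyte markers. The log2 fold changes of these markers themselves ran from −0.40 to 0.86 in males, so that scaling does not measure hepatocyte content alone.

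**Figure D2:**
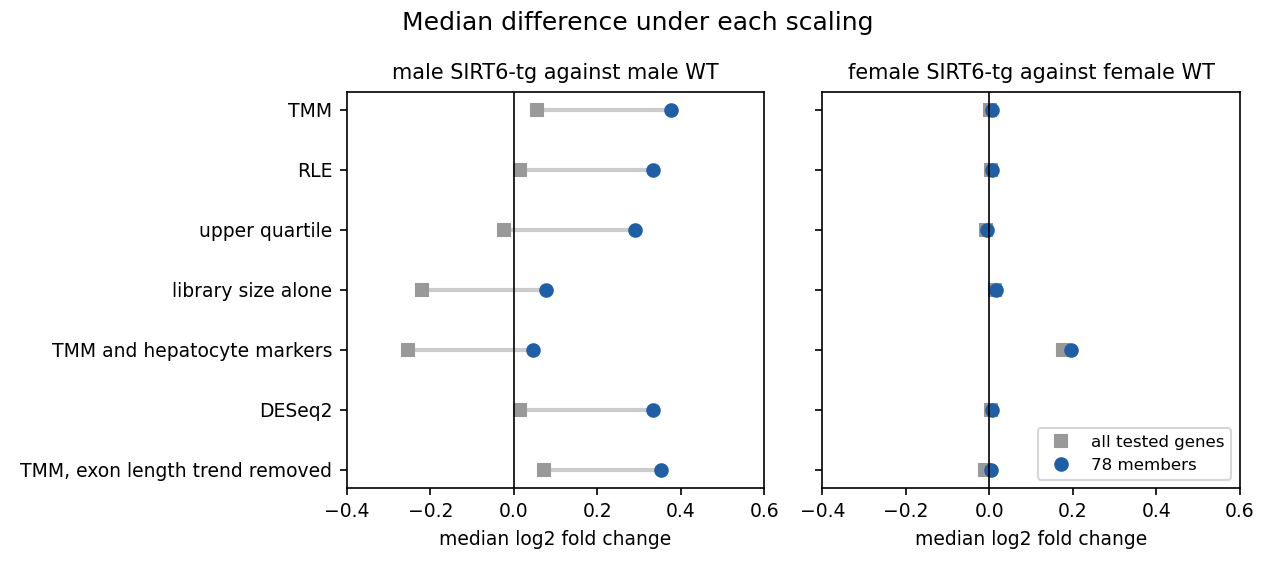
Median log2 fold change (x axis) of the 78 members (blue circles) and of all tested genes (grey squares) under 7 ways of scaling or testing (y axis), in males (left) and females (right). In males both medians shift together, from 0.38 and 0.06 under TMM to 0.046 and −0.25 with the hepatocyte markers, while the distance between them stays between 0.28 and 0.32. In females both medians lie near 0 except with the hepatocyte markers, where they are 0.20 and 0.18.

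Markers of leukocytes, stellate cells, and hepatocytes moved with genotype in males. Fewer cells of a type and less RNA per cell cannot be told apart in bulk samples. Over all genes, 9.68% were higher, 11.0% lower, and 20.7% called in either direction in this comparison. Beside these shares, 1 call in a list of 4 or 5 markers says little. Of 15 leukocyte markers, 15 were lower in male SIRT6-tg mice (median log2 fold change −1.37), and their summed level was 377 to 951 CPM in male WT and 216 to 356 CPM in male SIRT6-tg mice. All 5 stellate cell markers were lower (median −0.68), with summed levels of 283 to 524 CPM in male WT and 220 to 319 CPM in male SIRT6-tg mice. Of 14 hepatocyte markers, 5 were higher and 0 lower (median 0.36), with summed levels of 123927 to 161468 CPM in male WT and 147713 to 201508 CPM in male SIRT6-tg mice. One of 5 endothelial markers was lower (*Pecam1*, median of the list −0.37), 0 of 5 cholangiocyte markers passed the test, and pancreas markers summed to at most 2.16 CPM in any library. Of 4 expressed adipose markers 1 was lower, *Plin1*, which lay at 0 to 1.95 CPM in male WT and 0 to 0.0413 CPM in male SIRT6-tg mice, and the summed levels were 8.47 to 28.7 CPM and 10.2 to 22.2 CPM. Of 4 blood markers 1 was higher, *Alas2* (0.42, edgeR adjusted p = 0.0127), with summed levels of 186 to 455 CPM and 173 to 657 CPM. No expressed marker was at 0 in all libraries of a group. Their part in the result was not tested beyond the hepatocyte scaling above.

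*Mrpl39*, a large-subunit protein related to threonyl-tRNA synthetase, had the lowest adjusted p. Its lowest, median, and highest levels were 30.6, 33.1, and 35.2 CPM in male WT and 38.1, 41.6, and 45.9 CPM in male SIRT6-tg mice. The ranges did not overlap, and the log2 fold change was 0.38 ± 0.07 (SE, edgeR adjusted p = 0.000178). In females its levels ran from 32.2 to 40.9 CPM in WT and from 33 to 40.9 CPM in SIRT6-tg mice, nearly the same range (log2 fold change 0.05, 95% interval −0.08 to 0.19).

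Among small-subunit genes, *Mrps35* and *Mrps22* had the largest differences of the 5 lowest adjusted p. *Mrps35* lay at 22.3, 24.2, and 28 CPM (lowest, median, highest) in male WT and at 29.0, 34.8, and 43.5 CPM in male SIRT6-tg mice, without overlap (log2 fold change 0.51 ± 0.11 SE, edgeR adjusted p = 0.000768). *Mrps22*, which is known from inherited defects of mitochondrial translation and whose promoter is printed above, lay at 16.4, 18.1, and 21.7 CPM and at 20.5, 24.6, and 32.0 CPM in the same groups (0.50 ± 0.10 SE, adjusted p = 0.000839 by the same edgeR test). Its ranges overlapped through 1 WT mouse, mouse 6, at 21.7 CPM. *Mrps5*, a protein near the entry of the mRNA channel, was at 23.2 to 25.9 CPM in male WT and 27 to 43.8 CPM in male SIRT6-tg mice (0.39 ± 0.08 SE, edgeR adjusted p = 0.00106), again with every SIRT6-tg mouse above every WT mouse.

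The 3 paralogs *Mrps18a*, *Mrps18b*, and *Mrps18c* encode related proteins, of which *Mrps18a* sits in the large and the others in the small subunit. *Mrps18b* lay at 11.2, 11.9, and 14.7 CPM in male WT and at 14.8, 16.4, and 17.8 CPM in male SIRT6-tg mice, with the highest WT mouse just under the lowest SIRT6-tg mouse (0.38 ± 0.08 SE, edgeR adjusted p = 0.000648). *Mrps18a* overlapped between the groups, at 22.4 to 31.7 CPM against 29.8 to 44.6 CPM (0.37 ± 0.13 SE, edgeR adjusted p = 0.0413). *Mrps18c* had the largest log2 difference of the 3, 0.56, yet a SE of 0.28 and an edgeR adjusted p of 0.157, with levels from 11.3 to 29.3 CPM in male WT and from 14.0 to 49.7 CPM in male SIRT6-tg mice. *Mrps18b* shares 30.5% of its exon bases with *Gm16279* and *Mrps18c* 23.2% with *Gm43511*, and as the library kit did not mark strand and the counting setting is not stated, their reads may be divided.

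*Mrps27*, a small-subunit protein with pentatricopeptide repeats, was at 14.9, 17, and 19.6 CPM in male WT and at 20.3, 22.3, and 27.0 CPM in male SIRT6-tg mice, without overlap (0.41 ± 0.10 SE, edgeR adjusted p = 0.00271). It shares 24.2% of its exon bases with *6430562O15Rik*. Other *Mrps* genes chosen for their roles were less even. *Mrps12*, the protein of the decoding centre, had a log2 fold change of 0.43 that did not pass (edgeR adjusted p = 0.132), with male WT mice at 22.1 to 44.2 CPM and SIRT6-tg mice at 29.0 to 62.7 CPM. *Mrps34* had a value of 0.32 (edgeR adjusted p = 0.190), and 77.8% of its exon bases lie under exons of *Mapk8ip3* and *Nme3*. *Mrps36*, now known as a subunit of the 2-oxoglutarate dehydrogenase complex rather than of the ribosome, was at only 1.13 to 1.71 CPM in male WT and 1.25 to 3.34 CPM in male SIRT6-tg mice (0.28, edgeR adjusted p = 0.334).

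Of the large-subunit stalk proteins that bind translation factors, *Mrpl10* was higher and *Mrpl12* did not pass. *Mrpl10* lay at 30.1 to 35.3 CPM in male WT and at 37 to 47.1 CPM in male SIRT6-tg mice, without overlap (0.35 ± 0.08 SE, edgeR adjusted p = 0.00112). *Mrpl12*, which has also been reported to bind the mitochondrial RNA polymerase, was among the most abundant members and lay at 55.3, 68.4, and 98.7 CPM and at 75.3, 94.3, and 149.8 CPM (0.50 ± 0.20 SE, edgeR adjusted p = 0.0700). All 7 SIRT6-tg mice lay above the WT median, and WT mouse 6 lay above the SIRT6-tg median. *Mrpl44*, which has an RNase III-like fold, was higher without overlap, at 16.5 to 19.2 CPM against 20.5 to 27.1 CPM (0.33 ± 0.08 SE, edgeR adjusted p = 0.00460).

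The other large-subunit genes chosen for their roles had log2 differences of like size, and some passed the test. *Mrpl38* and *Mrpl48* of the central protuberance were higher by 0.30 and 0.26 on the log2 scale (edgeR adjusted p = 0.0131 and 0.0437), and *Mrpl58*, a peptidyl-tRNA hydrolase built into the ribosome, by 0.44 (adjusted p = 0.0452). The paralogs *Mrpl37* and *Mrps30*, which sit beside each other in the large subunit, were higher by 0.39 and 0.42 (edgeR adjusted p = 0.0365 and 0.0363). *Mrpl41* had a log2 difference of 0.47 and *Mrpl45*, the protein at the exit tunnel that ties the ribosome to the inner membrane, of 0.25, neither past the threshold (edgeR adjusted p = 0.198 and 0.203). *Mrpl53*, the only member with a negative male value, had at most 5 counts in any library and shares 88.0% of its exon bases with *Ccdc142os* and *Gm42688*, so its log2 value of −0.49 ± 0.68 (SE) rests on almost no reads.

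In females, where the log2 fold change of *Sirt6* was smaller than in males, no member passed the test. edgeR called 0 of 78 genes, where 0.0278% of all genes were called, 0.0232% higher and 0.00463% lower. DESeq2 also called 0 members, and 24 higher and 18 lower over all genes. By edgeR 0 of 78 had an unadjusted p under 0.05, where 5.62% of all genes had one. The median log2 fold change was 0.0071, against 0.0026 over all genes, and 40 members were positive and 38 negative. The levels of female WT and SIRT6-tg mice overlapped for all 78 genes, where 0.0417% of all genes were higher and 0.0417% lower without overlap. *Mrps18b*, at 10.6 to 14.0 CPM in WT and 10.8 to 13.0 CPM in SIRT6-tg mice, had a log2 difference of −0.05 with a 95% interval from −0.21 to 0.10, which leaves out its male value. For *Mrps27* the female value was −0.08 (95% interval −0.27 to 0.11), and for *Mrps35* it was 0.05 (−0.15 to 0.26). These genes were called in males. For members with a larger spread the intervals are wider and may hold the male value. Among the 26 members with the highest spread, the median SE in males was 0.23 and the median male log2 fold change 0.44.

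**Figure D3:**
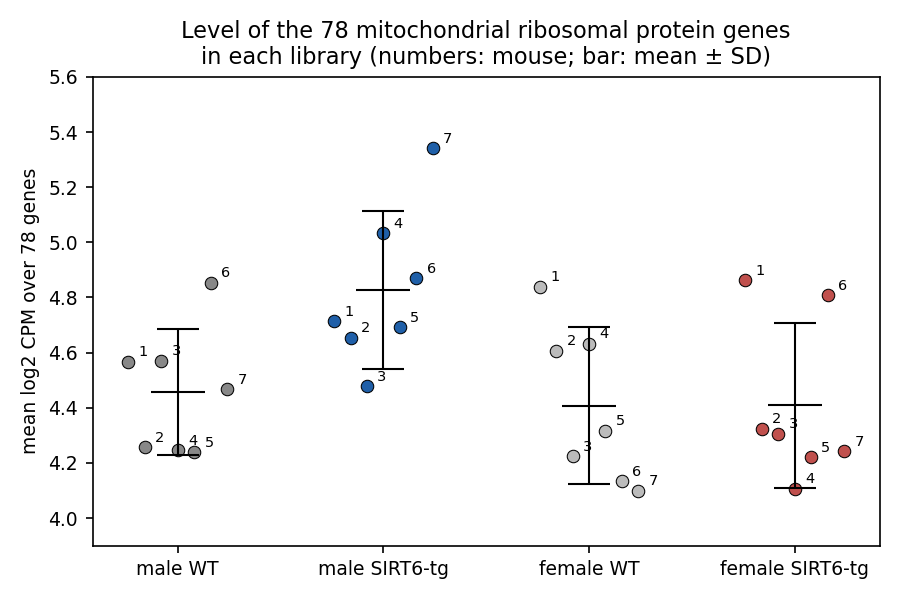
Mean log2 CPM over the 78 genes (y axis) in each of the 28 libraries (points, numbered by mouse) in the 4 groups (x axis), with the mean ± SD over 7 mice as a bar. Male WT mice lie between 4.24 and 4.85 and male SIRT6-tg mice between 4.48 and 5.34, with overlap, and both female groups lie between 4.10 and 4.86.

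Averaged over the 78 genes, the log2 CPM of the males was 4.46 ± 0.23 (SD over 7 WT mice) and 4.83 ± 0.29 (SD over 7 SIRT6-tg mice). That of the females was 4.41 ± 0.28 for WT and 4.41 ± 0.30 for SIRT6-tg (SD, n = 7 each). The mean of the SIRT6-tg males was thus the highest and the other 3 means lay within 1 SD of one another, but 4 of the 7 SIRT6-tg males were below the highest WT male, mouse 6.

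*Sirt6* itself had a larger log2 fold change in males than in females, so sex and the rise of *Sirt6* cannot be told apart below. When the genotype effect in males was compared with that in females directly, 75 of 78 members had the larger value in males. The median difference was 0.37 on the log2 scale (0.034 over all genes). The test of this difference passed for 2 members, *Mrps18b* and *Mrps27* (2.56%), where 1.2% of all genes passed in that direction, 3.84% in the other, and 5.05% in either, and 31 members had an unadjusted p under 0.05, as had 18.8% of all genes. *Mrps18b* differed by 0.44 ± 0.11 (SE, edgeR adjusted p = 0.0183) and *Mrps27* by 0.49 ± 0.14 (SE, edgeR adjusted p = 0.0333). *Mrpl39* was just outside (0.33 ± 0.10 SE, edgeR adjusted p = 0.0502). Under the hepatocyte scaling these differences were −0.050 and −0.0013, and the median of the members was −0.15. Of the 14 hepatocyte markers themselves, 3 passed the test of the difference between the sexes, with a median of 0.55, and their part in the result was not tested. Of the 15 leukocyte markers, 8 passed in the other direction, with a median of −1.11.

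In WT mice few members differed between the sexes. The test of male WT against female WT called 2 of 78 genes (2.56%), both lower in males, where 5.71% of all genes were lower, 6.65% higher, and 12.4% called in either direction. The ranges of the sexes overlapped for all 78 members, where 1.33% of all genes were higher and 1.64% lower without overlap. *Mrps2* lay at 24, 30.1, and 31.3 CPM in male WT and at 30.4, 34.3, and 40.5 CPM in female WT mice, overlapping at the edge (−0.27 ± 0.07 SE, edgeR adjusted p = 0.0141). *Mrpl50* lay at 45.3 to 51.9 CPM and at 51 to 68.1 CPM (−0.23 ± 0.07 SE, edgeR adjusted p = 0.0407). With 1 library left out at a time, *Mrps2* kept its call in all 28 fits and *Mrpl50* in 11. Both were higher in male SIRT6-tg than in male WT mice, *Mrps2* by 0.24 and *Mrpl50* by 0.28 on the log2 scale (edgeR adjusted p = 0.0192 and 0.00621), and these comparisons share the male WT mice. Under library size alone no member was lower in male WT and 16 (20.5%) were higher, where 16.9% of all genes were higher and 2.57% lower, and the median of all genes was 0.19 in place of −0.0033.

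The spread within groups was shared by most members. The median within-group SD of log2 CPM was 0.31 over the 78 genes, against 0.40 over all expressed genes and 0.23 over the 6022 genes at the members' level (log2 CPM of 2.96 to 5.82). By group the members' median SD was 0.25 in male WT, 0.31 in male SIRT6-tg, 0.28 in female WT, and 0.31 in female SIRT6-tg mice. The members moved together from mouse to mouse: 1 axis held 86.1% of their variance within groups, and the median correlation over the 3003 pairs of members was 0.82 across the 28 libraries, where points share the library's depth and makeup. Mouse 6 was the highest of its group for 52 of 78 genes in male WT, mouse 7 for 70 in male SIRT6-tg, mouse 1 for 64 in female WT, and mice 1 and 6 for 44 and 32 in female SIRT6-tg.

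**Figure D4:**
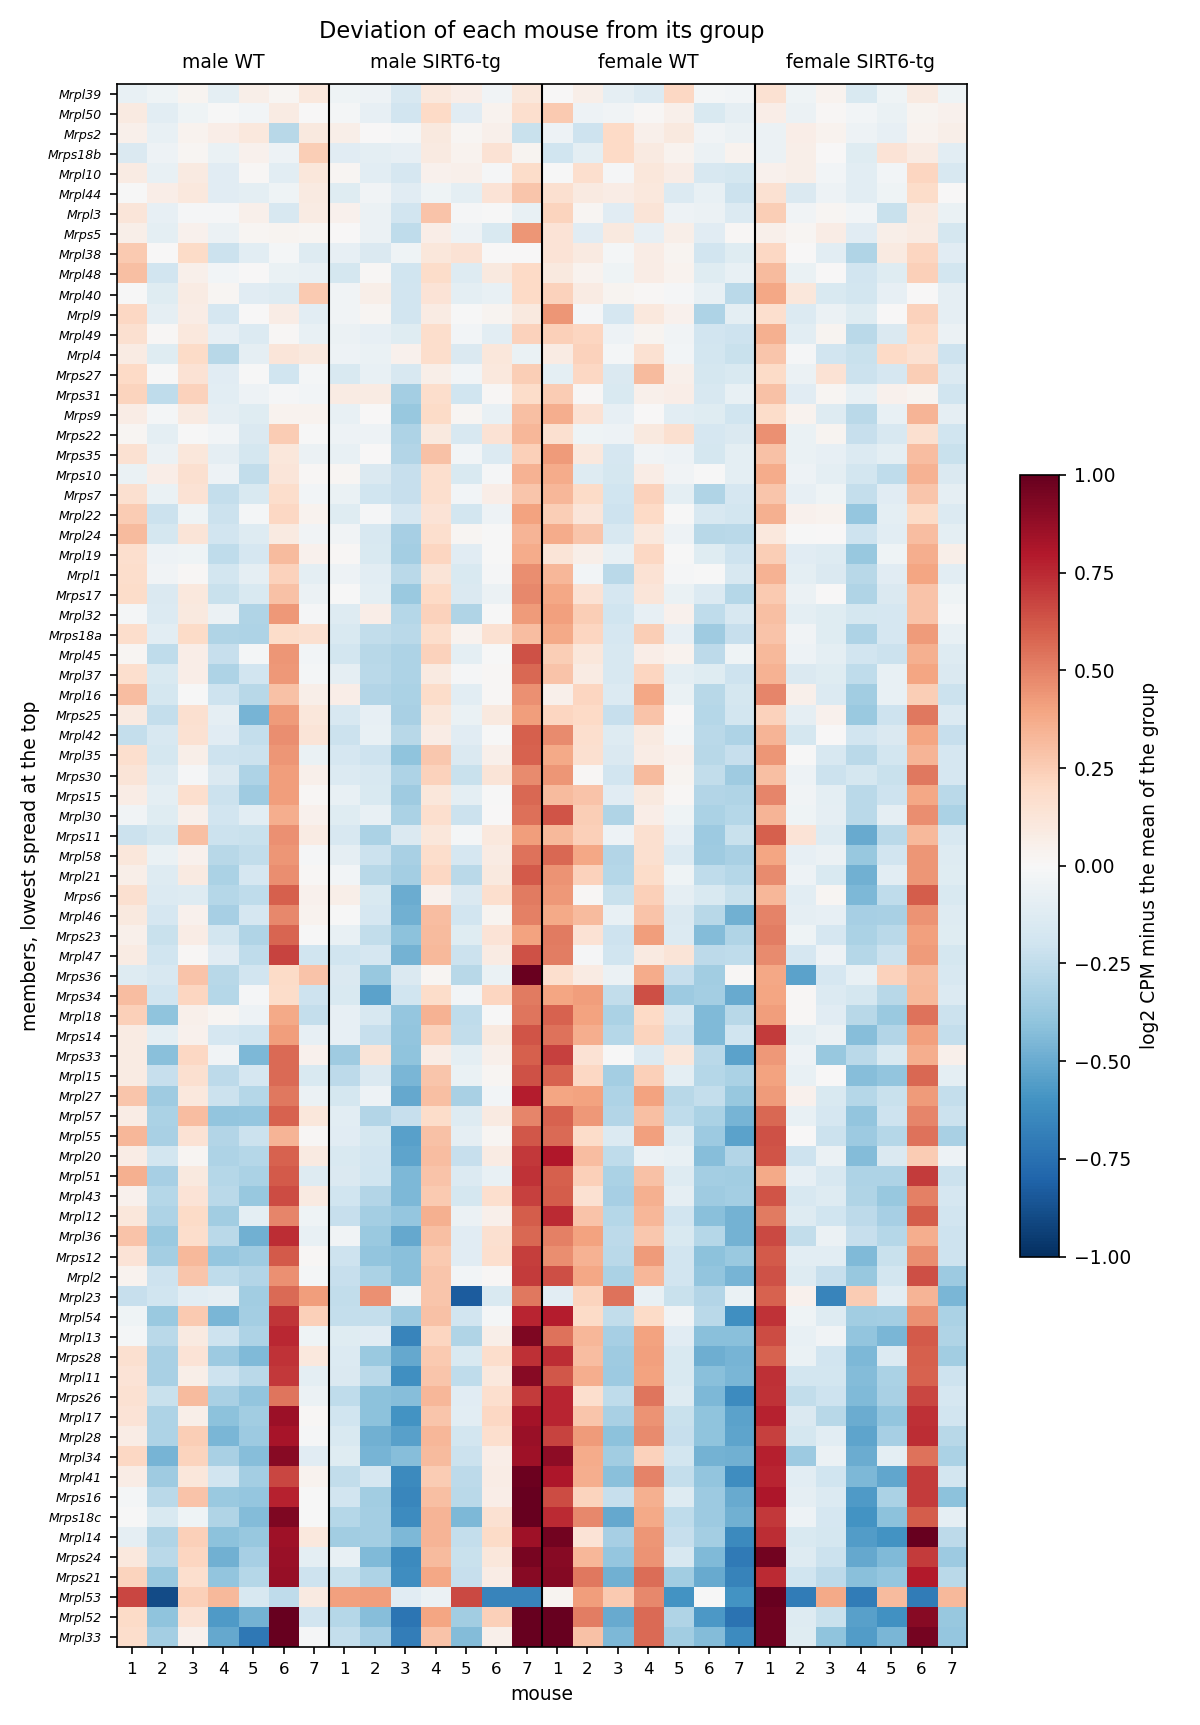
Log2 CPM minus the mean of the group (colour) for each of the 78 genes (rows, lowest spread at the top) in the 28 mice (columns, 4 groups of 7). The same mice are red or blue down most of the figure, with male WT mouse 6, male SIRT6-tg mouse 7, female WT mouse 1, and female SIRT6-tg mice 1 and 6 the highest, and the colour is faint in the top rows.

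The same mice stood out in related genes. The mean log2 CPM of the 88 cytosolic ribosomal protein genes ran from 3.77 to 4.74 in male WT mice, with mouse 6 the highest, and that of 83 nuclear respiratory chain genes from 5.66 to 6.52, again with mouse 6 the highest. In male SIRT6-tg mice both were highest in mouse 7, at 4.91 and 7.05. Without male WT mouse 6 and male SIRT6-tg mouse 7, left out together after the data were seen, 28 members were higher in male SIRT6-tg mice, 27 of them among the 34, and the median log2 fold change was 0.34. In that fit 6.95% of all genes were higher.

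Calls in males were most frequent among the members with a low spread. Over all genes of any spread, 9.68% were higher and 2.6% higher without overlap. The share among all genes of like spread was not measured. Among the 26 genes with the lowest SD (0.10 to 0.23), 24 were called in males and 10 had ranges that did not overlap, with a median log2 fold change of 0.36. Among the middle 26 (SD 0.24 to 0.37), 10 were called, with a median of 0.36. Among the 26 with the highest SD (0.37 to 0.66), 0 were called, although their median was 0.44. The spread enters the test itself, so these counts describe the calls and are no separate evidence. The low-spread genes were longer, with a median coding length of 874.5 bases against 568.5 in the middle and 432 in the high-spread genes, and across the 78 genes Spearman's rho of SD with coding length was −0.64, a description over genes that share the same libraries.

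**Figure D5:**
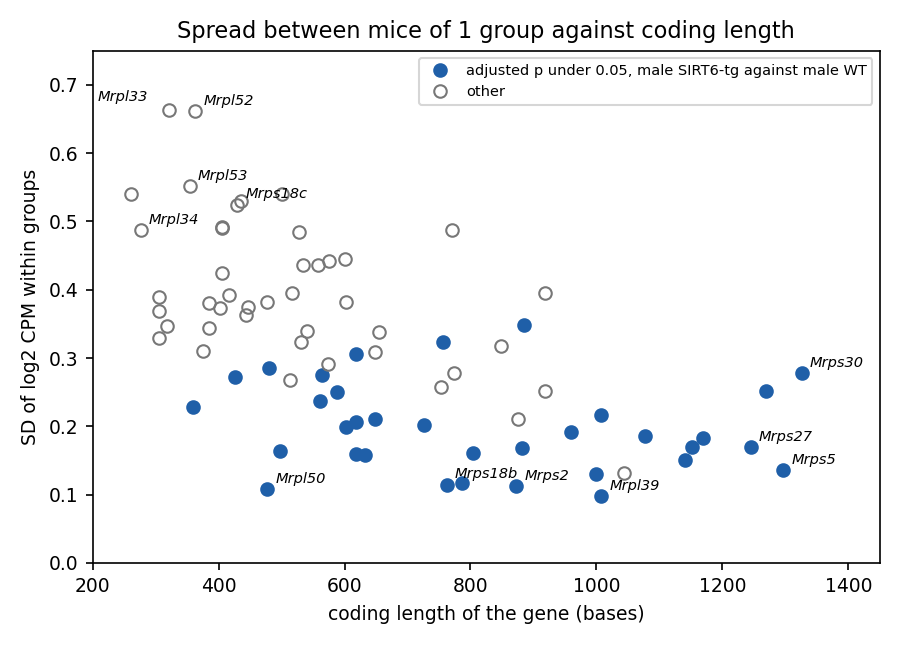
Within-group SD of log2 CPM (y axis) against coding length in bases (x axis) for the 78 genes; filled blue points were called in males and open points were not. Short genes such as *Mrpl33* and *Mrpl52* lie at the top with an SD of 0.66 each, and *Mrpl39* lies lowest at 0.10, with the called genes at the lower edge.

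The extremes of spread were *Mrpl39* (SD 0.10), *Mrpl50* (0.11), and *Mrps2* (0.11) at the low end, and *Mrpl33* (0.66), *Mrpl52* (0.66), and *Mrpl53* (0.55) at the high end. *Mrpl52*, whose promoter is printed above, ran from 27.4 CPM in male WT mouse 4 to 99.2 CPM in mouse 6 of the same group, and from 33.4 to 124.5 CPM in male SIRT6-tg mice. *Mrpl33* ran from 9.74 to 41.3 CPM and from 13.9 to 57.9 CPM in the same groups. Their log2 differences of 0.44 and 0.49 carried SEs of 0.35 and 0.36, so neither differed by more than the spread between mice. *Mrpl11*, *Mrps24*, and *Mrpl17* followed the mean of the other members most closely (correlations of 0.99 each over 28 libraries of within-group deviations). *Mrps2* (−0.39), *Mrps18b* (−0.03), and *Mrpl53* (0.06) followed it least. *Mrps2* was lowest, not highest, in male WT mouse 6 (24 CPM) and male SIRT6-tg mouse 7 (29.6 CPM), and of these 3 genes both it and *Mrps18b* were nonetheless higher in male SIRT6-tg mice.

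Per kilobase of exon, the most abundant members were *Mrpl14* (51.6 CPM per kb), *Mrpl12* (51.2), and *Mrpl34* (42.6). The least abundant were *Mrpl53* (0.0711 CPM per kb), *Mrpl23* (0.294), and *Mrps36* (1.21). *Mrpl23* and *Mrps36* share sequence with pseudogenes, with 11.8% of the 50-base words of *Mrpl23* found in *Mrpl23-ps1* and 17.3% of those of *Mrps36* in *Mrps36-ps1*, and reads that map to several places were not counted. *Mrpl34* had the largest male log2 fold change of all members, 0.69 ± 0.25 (SE), with male WT mice at 16.2, 20.7, and 42.2 CPM and SIRT6-tg mice at 26.4, 33.6, and 65.5 CPM, and missed the threshold (edgeR adjusted p = 0.0515). Among the 45 members whose exons overlap no other gene, 22 were called higher in males, with a median log2 fold change of 0.38. Over all genes 9.68% were higher.

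The rest of the mitochondrial translation machinery was measured in lists chosen for their function. Beside the counts that follow, 9.68% of all genes were higher in male SIRT6-tg mice and 11.0% lower. Of 16 translation factors, 10 were higher in male SIRT6-tg mice and 0 lower (median log2 fold change 0.31), among them *Taco1*, an activator of cytochrome oxidase translation, at 13.8 ± 1.9 against 19.1 ± 0.7 CPM (SD, n = 7; log2 fold change 0.47, edgeR adjusted p = 0.000183). The initiation factors *Mtif2* and *Mtif3* were higher by 0.37 and 0.48 (edgeR adjusted p = 0.000306 and 0.00118), and the release factor *Mtrf1l* by 0.46 (adjusted p = 0.000872). Of 20 mitochondrial tRNA synthetases and amidotransferase subunits, 11 were higher and 0 lower (median 0.26), with *Gatc*, *Aars2*, *Hars2*, and *Gatb* at the lowest adjusted p. Of 26 assembly factors, 10 were higher and 0 lower (median 0.32), led by *Mterf4* (0.35, edgeR adjusted p = 0.00153), which recruits an rRNA methyltransferase, and *Noa1* (0.41, adjusted p = 0.00386), a GTPase.

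Of 5 further ribosomal proteins that carry other names, 1 was higher in male SIRT6-tg mice, as were 9.68% of all genes. It was *Dap3* (0.37, edgeR adjusted p = 0.0497). Both mitochondrial ribosomal RNAs were higher in the same mice. *mt-Rnr1* was at 1937 ± 293 and 3107 ± 776 CPM (SD, n = 7) in male WT and male SIRT6-tg mice (0.68 ± 0.17 SE, edgeR adjusted p = 0.00357), and *mt-Rnr2* at 3353 ± 864 and 6249 ± 1702 CPM (SD, n = 7; 0.90 ± 0.19 SE, adjusted p = 0.000705 by the same edgeR test). Of the 13 mitochondrial messenger RNAs, 8 passed the filter and 6 of these were higher (median 0.62), while *mt-Co2*, *mt-Co3*, *mt-Atp6*, *mt-Atp8*, and *mt-Nd4l* had at most 6 counts over all 28 libraries. Reads that map to several places were not counted, so a low count here need not mean an absent transcript. Whether the mitochondrial genes lost reads in this way was not tested. Among 12 regulators 3 were higher, *Tfb2m* (0.45), *Tfam* (0.36), and *Ppargc1b* (0.39), at edgeR adjusted p of 0.00867, 0.0338, and 0.0467. *Ppargc1a* was at 11 ± 2.2 and 10.7 ± 2.4 CPM (SD, n = 7), a log2 difference of −0.03. In females 0 genes of these lists were called by edgeR, with 2 translation factors and 1 synthetase at an unadjusted p under 0.05. In WT males both ribosomal RNAs were lower than in WT females (log2 fold changes of −0.91 and −0.88), as were 5.71% of all genes. Of the 8 messenger RNAs that passed the filter, 5 were lower and 1 higher in WT males, where 6.65% of all genes were higher. These comparisons share the male WT mice with those above.

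For comparison, 4 of 88 cytosolic ribosomal protein genes were higher and 1 lower in male SIRT6-tg mice, with a median log2 fold change of 0.33. Of 83 nuclear respiratory chain subunits, 29 were higher and 1 lower, with a median of 0.52. In the same comparison 9.68% of all genes were higher and 11.0% lower. In females 0 genes of either list were called by edgeR, with 2 and 3 at an unadjusted p under 0.05, and the medians were −0.14 and −0.06. The members' 34 calls at a median of 0.38 therefore stood beside 4 upward calls at a nearly equal median in the cytosolic ribosome, and the difference between the lists was not tested.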

How the data were processed

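Read counts of 28 liver libraries were analysed, with sex, genotype, and mouse number taken from the labels. The authors made NEBNext Ultra libraries, aligned single-end reads to mm10 with STAR 2.5.0a, used HTSeq-count to assign uniquely mapped reads to Gencode genes, and deposited the raw counts, which carry no normalization; the strand setting is not given in the sources used here. Symbols came from Gencode vM21 on the same build, and 63 of the 78 members had the same versioned identifier.

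Genes with a mean of 0.5 or more DESeq2-normalized counts were tested, which left 21583. The study used that cut-off to define expressed genes for its pathway analysis. The authors' own test was DESeq2. For this report TMM factors and the edgeR 4.0.16 quasi-likelihood F-test were applied (R 4.3.3, robust, 28 libraries in 1 fit), with Benjamini-Hochberg adjustment over all expressed genes, and the procedure was tested on simulated data. SE is the log2 fold change divided by the root of the F statistic, and 95% intervals use normal limits. Levels are TMM-scaled CPM, and log2 CPM used a prior count of 2. Each mouse is 1 library, so the p-values set a difference against the spread between mice. That spread is estimated over all 4 groups, with information shared across genes. Total counts of 18758863 to 35393069 set the counting error of each level. No column was left unmapped (0). No libraries of a group agreed within sampling noise.

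The genes and lists were chosen with earlier results of these data known. Members were named by role, by the 5 lowest adjusted p in each direction of each of 4 comparisons, and by the 3 highest and lowest values of level per kilobase, spread, and likeness, and *Mrpl9*, *Mrpl22*, *Mrps11*, and *Mrpl46* for their promoters. Genes of other lists were named by lowest adjusted p (up to 4 a list). The alternatives were other scalings, filters, DESeq2 1.42.0, each sex fitted alone, an exon length trend removed, the replicate number as a block, and each library left out; scaling to hepatocyte markers and leaving out both high male libraries were added after the data were seen.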

Additional observations from a re-analysis of the deposited data

Results flagged for a closer look

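Of 132 sets of 7 values examined (32 named members and the members' mean in 4 groups), 19 held a mouse that stood far from the other 6, where chance gives about 7 by the criterion used. These sets are not independent, since the members move together across mice and some were named for their spread or likeness, so the 19 cannot be read as an excess. In male WT mice it was mouse 6 in 11 genes, each time the highest. Its levels were 99.2 CPM for *Mrpl52*, 104.5 CPM for *Mrpl17*, 92.8 CPM for *Mrps24*, 76.4 CPM for *Mrpl14*, 49.3 CPM for *Mrpl11*, and 42.2 CPM for *Mrpl34*. They were 41.3 CPM for *Mrpl33*, 40.5 CPM for *Mrpl45*, 34 CPM for *Mrpl41*, 29.3 CPM for *Mrps18c*, and 21.7 CPM for *Mrps22*. For *Mrpl52* the other 6 mice lay between 27.4 and 46.4 CPM.

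In male SIRT6-tg mice it was mouse 7 in 7 genes, highest in 6 of them. Its levels were 76.6 CPM for *Mrpl37*, 57.9 CPM for *Mrpl33*, 56.7 CPM for *Mrpl41*, 49.7 CPM for *Mrps18c*, 43.8 CPM for *Mrps5*, and 3.34 CPM for *Mrps36*. For *Mrps2* the same mouse was the lowest, at 29.6 CPM, with the others at 34.1 to 37 CPM. In female WT mice it was mouse 1 for *Mrps35*, at 37.8 CPM, with the others at 24.9 to 30.3 CPM. The cause was not tested.

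The genotype effect differed between the sexes by the edgeR test of the difference for *Mrps18b* (0.44 on the log2 scale, higher in males) and *Mrps27* (0.49). Leaving out 1 library at a time kept the call of *Mrps18b* in 27 of 28 fits and that of *Mrps27* in 17.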

How the results depend on the processing

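In males all fits kept a positive median. The count of higher members was 22 with RLE, 15 with upper-quartile scaling, and 0 with library size alone or with hepatocyte scaling, where the median was 0.078 and 0.046. It was 25 with DESeq2, 26 without a filter, 28 with each sex alone or with both high male libraries left out, 32 with filterByExpr, and 33 with the exon length trend removed. Of all genes, 8.21% were higher with DESeq2, 4.73% without a filter, and 6.8% with each sex alone. The share was 6.95% with both high male libraries left out, 14.6% with filterByExpr, and 11.6% with the length trend removed. With 1 library left out the count of higher members ran from 16 to 49 (21 without male WT mouse 2, 16 without 4, 19 without 7, 21 without male SIRT6-tg mouse 4, 19 without 7), and the median from 0.27 to 0.45. In these fits 5.07% to 11.3% of all genes were higher. Of the 34 calls, 15 held in all 28 fits without 1 library and in 9 further fits, which leave aside library size alone and hepatocyte scaling, among them *Mrpl39*, *Mrps18b*, *Mrps35*, *Mrps22*, and *Mrps5*. Of all 78 members, 56 stayed positive with hepatocyte scaling and 64 with library size alone. Among the members named in this report and called in males, some signs reversed, none past the test. With hepatocyte scaling these were −0.0054 for *Mrpl38*, −0.057 for *Mrpl48*, −0.074 for *Mrps2*, and −0.047 for *Mrpl50*. With library size alone they were −0.025, −0.037, and −0.010 for *Mrpl48*, *Mrps2*, and *Mrpl50*.

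Females had 0 calls in every fit, with a median from −0.07 to 0.09 with 1 library left out. At most 0.12% of all genes were higher and 0.0834% lower in any fit. The difference between the sexes (2 members) gave 1 with RLE, upper-quartile scaling, or both high male libraries left out, 3 with DESeq2, 4 with filterByExpr, and 0 without a filter, among members without exon overlap, with library size alone (median 0.055), or with hepatocyte scaling (median −0.15). There *Mrps18b* and *Mrps27* reversed to −0.050 and −0.0013. Of all genes, 0.69% passed as larger in males with RLE, 0.542% with upper-quartile scaling, 0.788% without both high male libraries, and 1.63% with DESeq2. The share was 2.35% with filterByExpr, 0.405% without a filter, 0.12% with library size alone, and 0.107% with hepatocyte scaling. Leaving out 1 library gave 0 to 6: 0 without male WT mouse 4, 1 without male WT 6 or 7, male SIRT6-tg 4 or 7, female WT 2, or female SIRT6-tg 2, 4, 5, or 7, and 4, 6, and 5 without male SIRT6-tg 3 and female SIRT6-tg 1 and 6. Over these fits 0.505% to 2.01% of all genes passed as larger in males.

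Male against female WT (2 members, both lower in males) gave 1 with RLE, 0 without a filter or with the WT groups alone, 5 with both high male libraries left out, 2 of 45 without exon overlap, and 16 and 29 members higher in males with library size alone and hepatocyte scaling (16.9% and 18.9% of all genes), where *Mrpl50* was at 0.034. Of all genes, 5.15% were lower with RLE, 3.05% without a filter, 4.1% with the WT groups alone, and 5.07% without both high male libraries. Leaving out 1 library gave 1 to 3 members lower in males: 1 without male WT mouse 1, 2, 3, 4, 5, or 7, male SIRT6-tg 2 or 6, female WT 1, 2, 3, 4, or 5, or female SIRT6-tg 1, 3, or 7. Over these fits 4.03% to 6.27% of all genes were lower in males. Without female WT mouse 4, *Mrps2* was lower and *Mrps34* was higher in males.

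Same-numbered mice correlated at −0.28 to 0.27 and 1 of 14 matched its own number best. This gave no sign that equal numbers pair the mice, but cannot exclude it, as paired mice need not be more alike. With the replicate block, 33 members were called in males, 1 for the difference between the sexes, and 2 between WT sexes. In that fit 8.98% of all genes were higher in male SIRT6-tg mice and 0.876% passed as larger in males. Between WT sexes 6.18% of all genes were higher and 5.29% lower in males. The median within-group SD of the members, 0.308, was 0.309 with a prior count of 0.5 and 0.262 with library size alone. The cause of these changes was not tested.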

Other observations

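Of the genes that start within 1000 bases of a member on the opposite strand, 31 were expressed and are no members. In male SIRT6-tg mice 7 of these 31 were higher and 3 lower, with a median log2 fold change of 0.27. Of all genes, 9.68% were higher and 11.0% lower in the same comparison. *Tcp1*, a subunit of the cytosolic chaperonin and the neighbour of *Mrpl18*, was higher by 0.37, and *Ptcd2*, the neighbour of *Mrps27*, by 0.37 (edgeR adjusted p = 7.5e-05 and 0.00184). *Twnk*, the mitochondrial DNA helicase beside *Mrpl43*, was higher by 0.35 (edgeR adjusted p = 0.00907). The 3 that were lower act in the cell cycle or in DNA repair. *Ncapd2*, a condensin subunit beside *Mrpl51*, had a log2 fold change of −0.87, *Ska3*, a kinetochore protein beside *Mrpl57*, of −1.46, and *Eme1*, a subunit of a DNA endonuclease beside *Mrpl27*, of −1.50. The members beside them had log2 fold changes of 0.39, 0.31, and 0.22. The difference within pairs was not tested. These genes were named after their values were seen.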
